A study of Homo sapiens with 2 samples.

Results

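HOX genes were followed through the ATAC-Seq peaks of untreated B2B cells. The members were chosen by name, as every protein-coding gene of GENCODE 44 called HOXA, HOXB, HOXC or HOXD with a number, and they are 39 of 20007 protein-coding genes, of which 38 are described here. The 39 lie in 4 clusters of 11 (HOXA), 10 (HOXB), 9 (HOXC) and 9 (HOXD) genes. B2B cells (BEAS-2B) are human bronchial epithelial cells that were immortalized and are not cancerous, with the genotype given as WT, and 2 biological replicates were profiled. ATAC-Seq marks DNA that the Tn5 transposase can reach, and a peak is a stretch with more sequenced fragments than its local background. Peaks were listed separately for either replicate. Both samples belong to 1 condition, which leaves no groups to compare or test. Whether the replicates came from separate cultures was not stated beyond their name, and their spread may be technical in part. The peaks were read gene by gene within 1 kb of each transcription start site (TSS), and across each cluster from 20 kb before to 20 kb after it.

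HOX genes encode homeodomain transcription factors that give cells along the body axis their position. In each cluster the genes stand in the order in which they act, from the head side (low numbers, paralog group 1) to the tail side (high numbers, up to group 13), and genes with the same number in different clusters are paralogs that arose by duplication. Polycomb complexes hold whole clusters silent where they are not needed, Trithorax complexes keep them on, and adult cells usually retain a combination of HOX genes that reflects where in the body they came from. In the developing airway and lung the factors of the middle groups, HOXA5 and HOXB5 among them, take part in branching.

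The 2 lists hold 28735 and 36162 peaks on chromosomes 1 to 22, X and Y in replicates 1 and 2. Read totals are not in the lists, and the number of listed peaks need not follow depth. The lowest local background, solved from the listed values, was 4.77 fragments in replicate 1 and 3.41 in replicate 2, which has the longer list. The number of fragments over a summit, solved from the listed values, had a median of 35 in replicate 1 and 30 in replicate 2, and no listed peak had fewer than 16 and 13. More fragments were needed where the local background was higher, and the absence of a peak at a HOX gene does not show that its chromatin was closed. Of 13 promoters of bronchial epithelial marker genes, 2 had a peak in both replicates (KRT18 and NKX2-1), as against 9 of 12 mesenchymal ones, 0 of 4 blood cell ones and 52.3% of all protein-coding promoters. CDH1, EPCAM, KRT5, KRT14 and TP63 were among the epithelial ones without a peak, and KRT8 had one in replicate 2 only. The mesenchymal ones without a peak were ZEB2, COL3A1 and COL1A2. All were read at the canonical TSS only, and other starts of these genes were not looked at. Within 500 bp of the TSS the lists had median CpG counts of 41, 49 and 15, below the 66 of all protein-coding promoters, and their part in these counts was not tested.

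The 38 HOX promoters described here were without peaks. Within 1 kb of the TSS, 0 of 38 had a peak in replicate 1, 0 of 38 in replicate 2 and 0 of 38 in both. The 95% Wilson interval of the share is 0 to 9.18% and covers counting error only. It takes promoters as independent, although as many as 10 HOX TSSs lie in 1 stretch without a peak. Among all 20007 protein-coding genes the corresponding shares were 53.2% in replicate 1, 58.0% in replicate 2 and 52.3% in both (10457 genes). By cluster the 38 promoters were 10 of HOXA, 10 of HOXB, 9 of HOXC and 9 of HOXD, and by position 11 of paralog groups 1 to 4, 11 of groups 5 to 8 and 16 of groups 9 to 13. With the TSS of every annotated transcript in place of the canonical one, the count in both replicates was again 0. Widening the window to 3 kb gave HOXD12 in both replicates and HOXB6 in replicate 2.

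**Figure D1:**
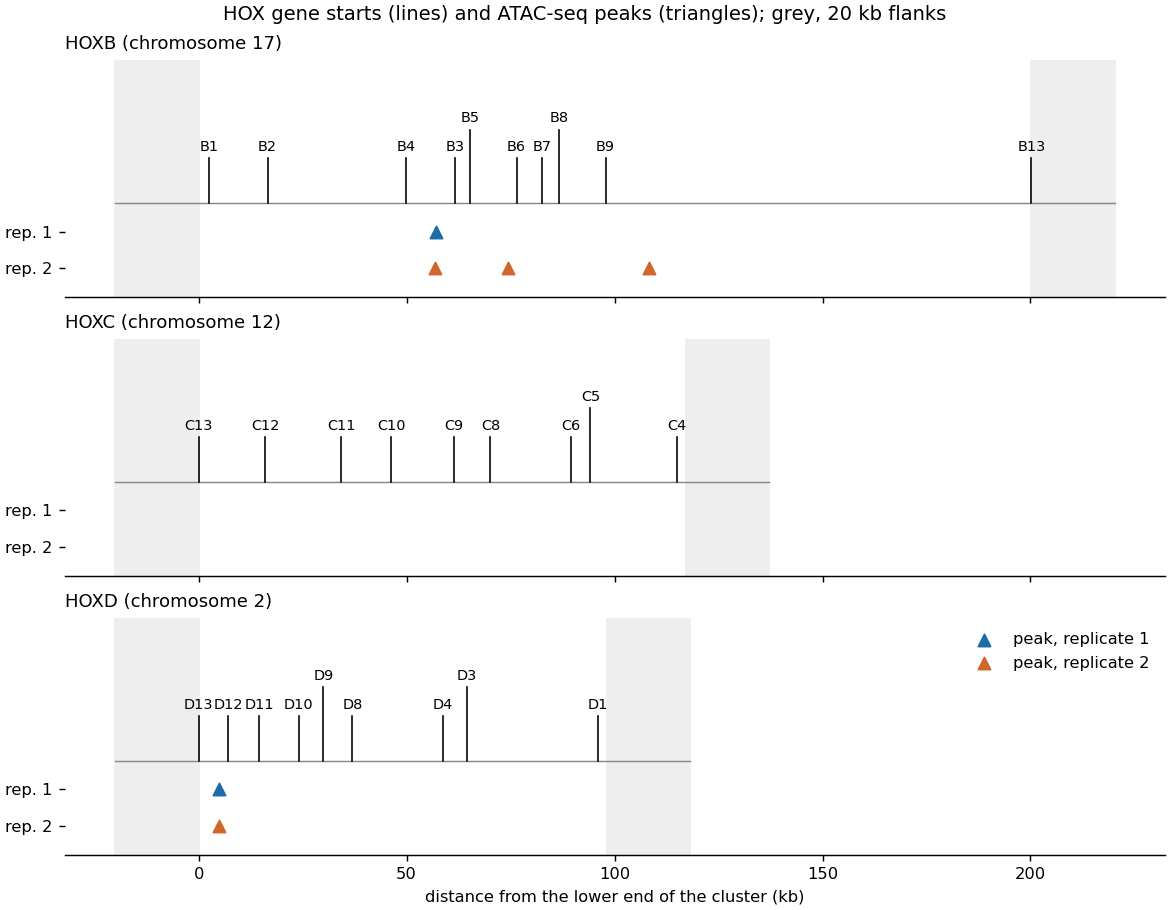
Map of the HOXB, HOXC and HOXD clusters, 1 panel each, with the distance from the lower end of the cluster in kb on the horizontal axis. Vertical lines are the canonical TSSs of their genes, triangles are the summits of the peaks of replicate 1 (blue) and replicate 2 (orange), and the grey bands are the 20 kb flanks. HOXB has 1 peak in replicate 1 and 3 in replicate 2, HOXD has 1 in each and the HOXC panel has none.

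The 4 clusters with their flanks span 683 kb (hg38) and held 3 peaks of replicate 1 and 5 of replicate 2. HOXB, on the minus strand of chromosome 17 from 48528526 to 48728750, had 1 in replicate 1 and 3 in replicate 2. HOXC, on chromosome 12 (plus strand) from 53938831 to 54056030, had none in either. HOXD, on chromosome 2 (plus strand) from 176092721 to 176190907, had 1 in each. Over the 4 spans together this came to 0.439 and 0.732 peaks per 100 kb in replicates 1 and 2, while the genome as a whole had 0.930 and 1.17. Peaks covered 0.188% and 0.264% of the bases of the spans, against 0.339% and 0.435% of the genome. Of the 5 regions that the peaks form in the spans, 3 had a peak in both replicates, whereas 25366 of 37661 regions did genome-wide (67.4%).

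The HOXD region lay between HOXD13 and HOXD12, with no protein-coding or lncRNA gene annotated at its summits. HOXD13 is the gene of the digits and external genitalia, at the tail-side end of its cluster. Replicate 1 had a peak over chr2:176097557-176097832 with a fold enrichment, which is the summit's fragments divided by those of the local background after adding 1 to each, of 6.41 from 36 fragments (95% exact Poisson interval 25.2 to 49.8). Replicate 2 had one over chr2:176097458-176097865 with 10.2 from 44 fragments (32.0 to 59.1). The summits were 2.14 and 2.07 kb upstream of the HOXD12 TSS, and 4.93 and 5 kb past the TSS of HOXD13. The mean was 8.30 ± 2.68 (SD, n = 2). The background was 4.77 fragments in replicate 1 and 3.41 in replicate 2, the lowest value of each list, shared by 23596 and 25521 peaks. The fold enrichment differed by 1.59 times between the replicates, and this difference includes that between the backgrounds. Over all protein-coding promoters with a peak the median was 8.52 ± 0.773 (SD of the replicates' medians, n = 2).

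The reference sequence around the mean summit of this region is shown because both replicates list it. It is chr2:176097586-176097786 of hg38 on the plus strand, with matches to the GC box GGGCGG on either strand in capitals.
HOXD13-HOXD12 region: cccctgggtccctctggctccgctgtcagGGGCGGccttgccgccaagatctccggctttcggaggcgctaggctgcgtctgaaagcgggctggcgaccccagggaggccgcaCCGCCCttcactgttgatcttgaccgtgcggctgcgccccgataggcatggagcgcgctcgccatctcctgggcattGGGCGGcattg
The window holds 3 GC box matches. The listed peaks were 65.9% and 64.5% G or C in replicates 1 and 2, against medians of 59.8% and 57.7% over all peaks of the 2 lists.

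HOXB had 2 peaks that were listed in replicate 2 only. One lay at chr17:48602660-48602942, in introns of HOXB6, HOXB3 and HOXB-AS3, with its summit 2.19 kb inside HOXB6. The other lay at chr17:48636604-48636749, in an exon of the lncRNA gene LINC03057, with its summit 10.4 kb upstream of the TSS of HOXB9. They had the same fold enrichment of 4.30, the same −log10 q of 5.79 and the same 18 fragments (10.7 to 28.4). Only 7.99% of the peaks of replicate 2 had a lower fold enrichment, and replicate 1 listed no peak with fewer than 16 fragments. Nothing about these regions rests on more than 1 sample. Their summits, at 81 bases each, are shown for comparison with the HOXD region, and neither holds a match to GGGCGG or to TGANTCA, the AP-1 site. They are chr17:48602760-48602840 and chr17:48636668-48636748 of hg38 on the plus strand.
HOXB6 region, replicate 2: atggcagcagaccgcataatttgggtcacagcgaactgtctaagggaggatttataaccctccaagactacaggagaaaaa
HOXB9 upstream region, replicate 2: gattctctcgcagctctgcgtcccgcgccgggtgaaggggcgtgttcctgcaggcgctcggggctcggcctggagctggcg

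Gene by gene, the distance from the canonical TSS to the nearest edge of a peak showed where each HOX gene stood relative to the listed peaks. Its median over the 38 genes was 52.4 kb in replicate 1 and in replicate 2, while over all protein-coding genes it was 0.167 kb and 0 kb (a TSS inside a peak counts as 0). More than 10 kb from any peak were 31 HOX genes in replicate 1 and 29 in replicate 2, as against 38.4% and 32.7% of all protein-coding genes. The 10 kb limit was chosen after the values were seen.

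In HOXA the distance increased towards the tail-side end, with a median of 58.0 kb in both replicates. These 10 genes lie in the same stretch without a peak, so the increase follows from their order and describes their positions only. HOXA2, which gives the pharyngeal arches their identity, stood 6.07 kb from a peak in replicate 1 and 6.05 kb in replicate 2. HOXA4 followed at 34.1 kb and HOXA5, which shapes the trachea and lung, at 47.1 and 47.0 kb. HOXA6 was 51.2 and 51.1 kb away. HOXA3, a gene of the thymus and parathyroid whose canonical transcript starts beyond HOXA6, stood at 56.0 and 55.9 kb. HOXA7 was at 60.1 kb in replicate 1, and HOXA9, well known from blood stem cells and leukaemia, at 68.9 kb in both. The tail-side genes were the most distant, with HOXA10 and HOXA11, both needed in the uterus, at 77.7 and 88.6 kb and the limb gene HOXA13 at 103 kb in each replicate.

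HOXB was the cluster in which the replicates differed, with a median distance of 27.5 kb in replicate 1 and 9.18 kb in replicate 2. HOXB1, a hindbrain gene, was 47.1 and 47.0 kb from a peak, and HOXB2 was 40.3 kb in both. HOXB3 at 4.58 and 4.57 kb, HOXB4 at 7.08 and 7.04 kb and HOXB5 at 8.12 and 8.11 kb were near a peak of both replicates. The next genes were reached by the peaks of replicate 2 alone. HOXB6 was at 19.3 kb in replicate 1 and 2.04 kb in replicate 2, HOXB7 at 25.4 and 8.08 kb, HOXB8 at 29.6 and 12.4 kb and HOXB9 at 40.7 and 10.2 kb. HOXB13, a gene of the prostate that lies apart from the rest of its cluster, was 88.3 kb from a peak in both.

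HOXC had no peak in its span, where HOXD had 1 in each replicate. The median distance in HOXC was 139 kb in both replicates, and no gene was nearer than 93.1 kb. The distances were largest in the middle of the cluster, where HOXC8, a gene of the thoracic segments, was 163 kb and HOXC6 161 and 160 kb from a peak. HOXC5 was at 156 kb, HOXC9 at 154 kb, HOXC10 at 139 kb and HOXC4 at 135 kb. HOXC11 followed at 127 kb, HOXC12 at 109 kb and HOXC13, which controls hair and nail keratins, at 93.1 kb. The nearest peaks lay outside the cluster on both sides, so these values only describe the width of the gap.

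HOXD had a median distance of 24.9 kb in both replicates. HOXD12 was nearest to the region between HOXD13 and HOXD12, at 1.96 and 1.93 kb, and HOXD13 stood at 4.84 and 4.74 kb. The limb genes HOXD11 and HOXD10 were 9.45 and 18.9 kb away in replicate 1 and 9.42 and 18.9 kb in replicate 2. HOXD9 followed at 24.9 kb, HOXD8 at 31.9 and 31.8 kb, HOXD4 at 53.7 kb and HOXD3 at 59.5 and 59.4 kb. HOXD1, at the head-side end, was 80.6 and 80.5 kb from a peak, which for this gene lay beyond the cluster.

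**Figure D2:**
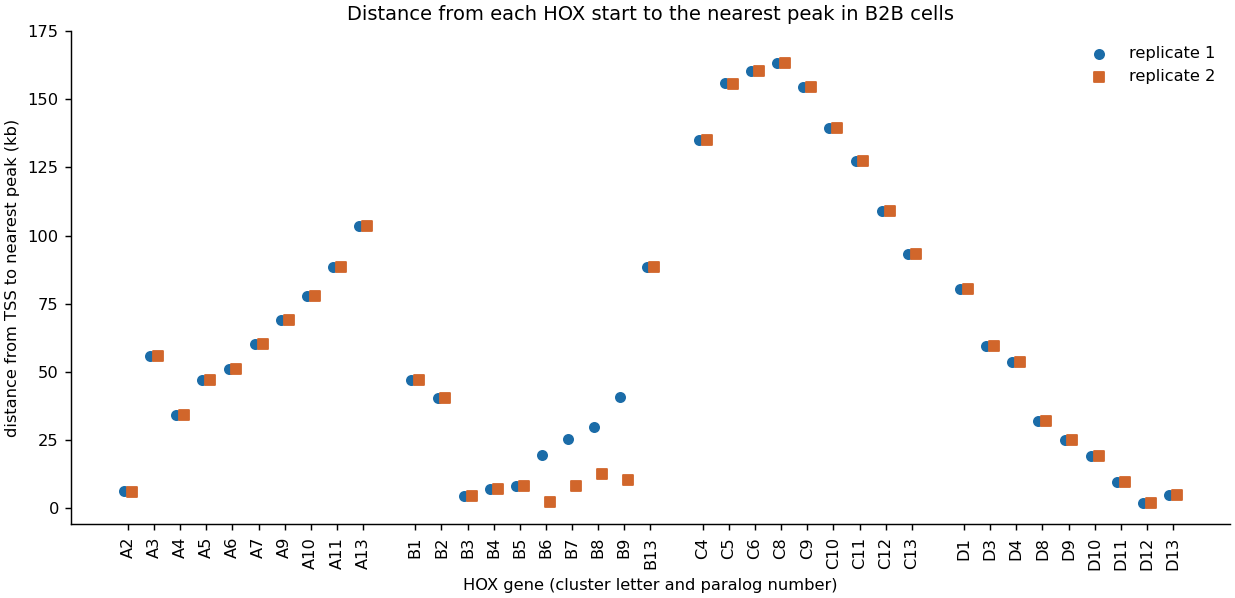
Distance in kb from the canonical TSS of each HOX gene to the nearest edge of a peak, for replicate 1 (circles) and replicate 2 (squares), with the genes on the horizontal axis by cluster letter and paralog number. The replicates lie on top of each other except for HOXB6, HOXB7, HOXB8 and HOXB9, and the HOXC genes lie at 93.1 kb and above.

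CpG dinucleotides accompany open promoters in most cells, and they were counted at the HOX promoters. Within 500 bp of the TSS the 38 HOX promoters had a median of 71.5 CpGs, from 21 at HOXB6 to 131 at HOXA13, and all protein-coding promoters had a median of 66. At or above that median were 22 of the 38 HOX promoters, while 73.8% of all promoters that rich had a peak in both replicates. Of all promoters with between 21 and 131 CpGs, the range of the HOX promoters (chosen after the values were seen), 63.8% did. The CpG-richest HOX promoters without a peak were those of HOXA13 (131 CpGs), HOXD11 (123), HOXD1 (113), HOXD9 (110) and HOXD8 (108). HOXD was the most CpG-rich cluster, with a median of 104, followed by HOXA with 85. HOXC had 61 and HOXB 49, both below the median of all protein-coding promoters. The part of CpG content in the missing peaks was not tested.

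**Figure D3:**
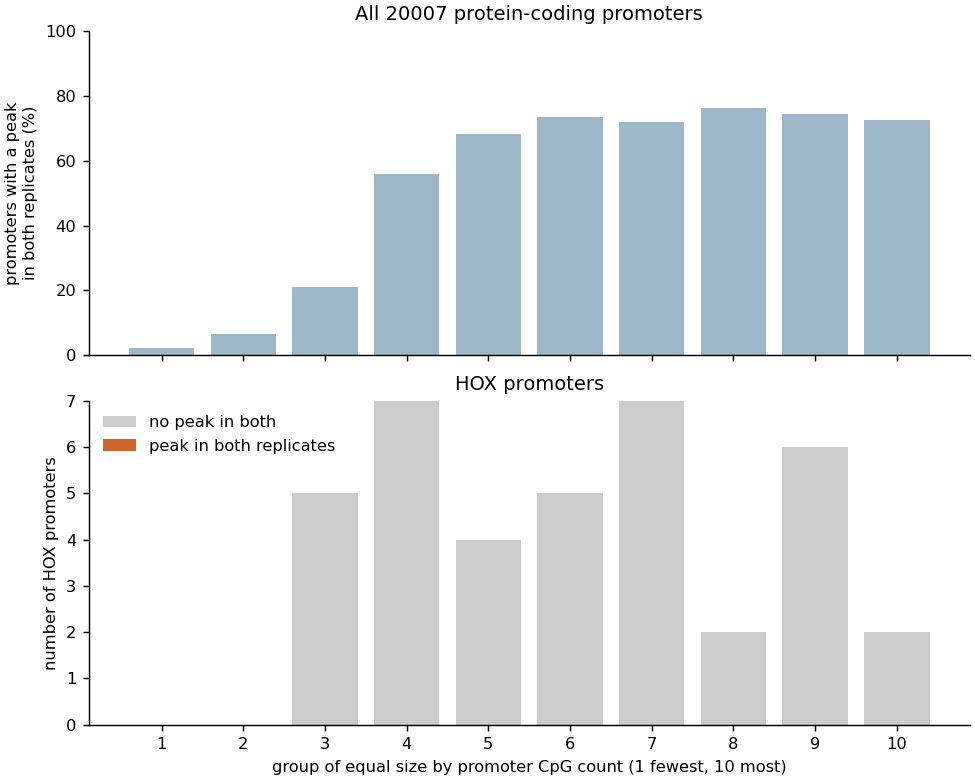
Upper panel, percent of all 20007 protein-coding promoters with a peak in both replicates in 10 groups of equal size by CpG count, from the fewest (1) to the most (10). Lower panel, number of the 38 HOX promoters in each group, in grey where there is no peak in both replicates. Groups 4 to 10 hold 33 HOX promoters, of which 0 have a peak, while between 56.1% and 76.4% of all promoters in each of these groups have one.

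The length of the stretches between neighbouring peaks showed how far the gaps ran. The peaks of both lists together leave 37685 stretches with a median of 26.4 kb. One stretch of 250 kb on chromosome 7 held 12 protein-coding TSSs, among them 10 HOXA genes and EVX1. Of these 12, 8 were CpG-rich (at or above the median of 66), EVX1 included, which was the highest number in any stretch of the genome. A stretch of 171 kb on chromosome 2, from 176097866 to 176269174, held 8 TSSs, all of HOXD genes, of which 6 were CpG-rich, a number equalled by 1 other stretch, on chromosome 10. All 9 HOXC TSSs lay in 1 stretch of 343 kb on chromosome 12, from 53845752 to 54188805, with 5 CpG-rich TSSs among its 10, including 1 that is not of a HOX gene. Of the 2216 stretches with at least 1 CpG-rich TSS, 8 had 5 or more and 3 of these held HOX genes. The HOXC stretch reached 5 only with the TSS that is not of a HOX gene. HOXB was split by its peaks into stretches of 101, 16.99, 33.7 and 180 kb with 1, 1, 2 and 0 CpG-rich TSSs. Ranking stretches in this way was chosen after the values were seen, and it describes these lists without a test.

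**Figure D4:**
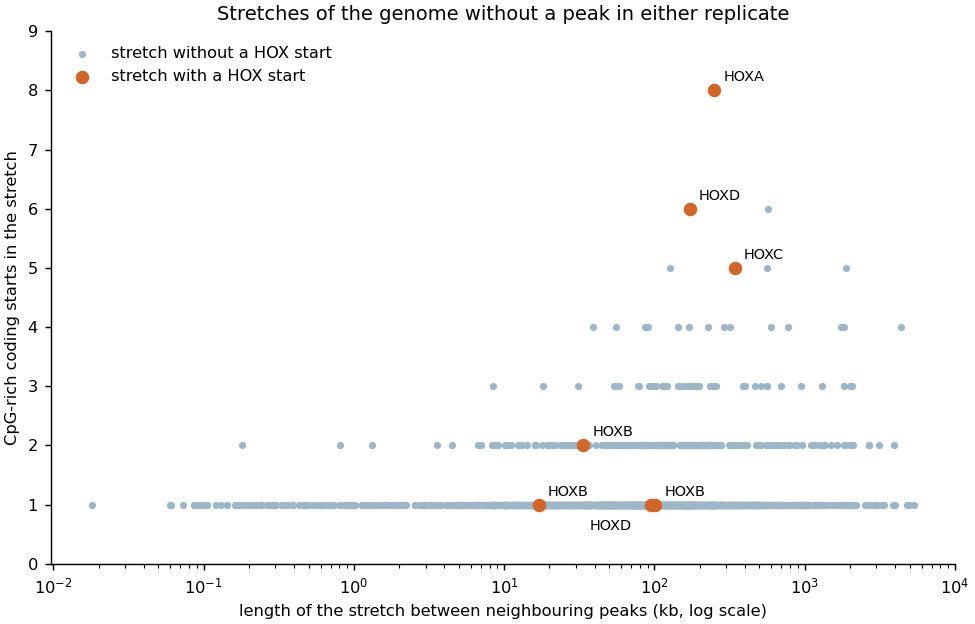
Each point is a stretch without a peak in either replicate that holds at least 1 CpG-rich protein-coding TSS, with its length in kb on a log scale on the horizontal axis and its number of CpG-rich TSSs on the vertical axis. Stretches with a HOX TSS are orange and named by cluster, and the HOXA stretch has the most CpG-rich TSSs, with 8, at a length of 250 kb.

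Inside the spans the gaps took in the other genes as well. The longest stretch without a peak, counted within the spans and over both lists, was 123 kb in HOXA, 112 kb in HOXB, 157 kb in HOXC, which is its whole span, and 113 kb in HOXD. The spans hold 5 protein-coding genes outside the family, and 0 of them had a promoter peak, among them EVX2, the homeobox gene next to HOXD13, and PRAC1 and PRAC2, next to HOXB13. The others are unnamed genes that start inside HOXA10 and HOXC10. PRAC1 and PRAC2 had 36 and 38 CpGs, below the median of 66. Over all protein-coding genes 52.3% had a promoter peak in both replicates. EVX1, the counterpart of EVX2 that lies 42.7 kb beyond HOXA13, had none either. Of the lncRNA genes in the spans 1 of 31 had a peak at its start in both replicates, and over the genome 18.8% of lncRNA genes did. The start of HOTTIP, which is transcribed from the tail-side end of HOXA, was 105 kb from the nearest peak, that of HOXA11-AS 87.9 kb, that of HAGLR in HOXD 80.7 kb in replicate 1 and that of HOTAIR in HOXC 129 kb. None of the 8 miRNA genes in the spans had one, as against 9.58% of all miRNA genes. They include MIR10A, MIR10B, MIR196A1, MIR196A2 and MIR196B, families that are known to act on HOX transcripts.

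The nearest genes outside the spans with a promoter peak in both replicates were looked up after the values were seen. At HOXD they were LNPK, 90.5 kb before the HOXD13 end, with a fold enrichment of 13.6 ± 0.754, and MTX2, 78.5 kb past the HOXD1 end, with 14.5 ± 2.31 (SD, n = 2). Both promoters stood above the median of all promoter peaks in height. Around HOXC the nearest were CALCOCO1, 211 kb before HOXC13, and SMUG1, 133 kb past HOXC4, where the fold enrichment was 5.43 ± 0.330. At HOXA they were SKAP2, at 228 kb, and HIBADH, 463 kb on the HOXA13 side. At HOXB the nearest on the HOXB13 side was TTLL6 at 88.5 kb with 5.96 ± 1.82, and on the HOXB1 side SNX11 at 421 kb. From 20 to 500 kb beyond the clusters the density was 1.35 and 1.72 peaks per 100 kb in replicates 1 and 2, higher than inside the spans in both.

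The HOXD region was searched for letters of factors tied to HOX clusters, within 100 bp of the higher summit and on both strands. CTCF marks boundaries within HOX clusters, and its motif was searched as 1 fixed string of letters without mismatches. The string did not match there and matched 1.25% of all 25366 shared regions. Sites that depart from it are missed, and the lack of a match does not show that a CTCF site is absent. In the spans of HOXB, HOXC and HOXD the string matched nowhere. Of its 1222 matches on chromosomes 2, 7, 12 and 17 (counted after the values were seen), 7.12% were in a shared region. The DR5 element, through which retinoic acid receptors act on HOX clusters, was searched in the same way. It did not match the region and matched 0.0591% of all. The HOXB span holds 2 matches to it and the HOXD span 1, and none was in a shared region. TAATTA, the core of many homeodomain sites, did not match and was in 1.09% of all, and TGANTCA did not match and was in 25.1% of all. The GC box matched at 176097699 to 176097704 and at 176097776 to 176097781, and was in 39.4% of all. For 1 region these matches describe its letters only.

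Most genes of the TALE, Polycomb and Trithorax lists had a promoter peak. Of the TALE cofactors, homeodomain partners that bind DNA beside HOX proteins, 7 of 9 had a peak in both replicates. PBX3 had one of 9.41 ± 1.00 fold and MEIS1 one of 7.06 ± 0.794 (SD, n = 2), whereas PBX2 and MEIS3 had none. The Polycomb group had 14 of 18, or 17 in replicate 2 alone. Its methyltransferase EZH2 had 12.8 ± 1.04 fold, SUZ12 of the same complex 8.12 ± 0.273, CBX8, a reader of the mark, 11.6 ± 1.66 and BMI1 4.69 ± 0.0169, while PCGF2 had no peak in either. RING1, EZH1 and CBX6 had one in replicate 2 only. The Trithorax group had 8 of 9, with KMT2A, the methyltransferase that maintains HOX expression, at 6.74 ± 0.693 and its partner MEN1 at 13.2 ± 2.77, and ASH1L had one in replicate 2 only. Set beside the 52.3% of all protein-coding genes, these shares of 77.8%, 77.8% and 88.9% come from short lists of CpG-rich promoters, with median CpG counts of 82, 95.5 and 95. Of all promoters with a CpG count at or above the median, 73.8% had a peak in both replicates. Whether the lists differ from these promoters was not tested.

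Genes upstream of the clusters, relatives of the family and genes of respiratory identity had shares of 42.9%, 15.4% and 58.3%. Beside them stand the 52.3% of all protein-coding genes. The median CpG counts of the 3 lists were 55, 79 and 88. Of the genes that induce HOX clusters, 3 of 7 had a peak in both replicates, namely the retinoic acid receptors RARB at 6.28 ± 2.02 and RARG at 5.40 ± 1.02 fold and the growth factor gene GDF11 at 7.48 ± 2.00 (SD, n = 2). The caudal genes CDX1, CDX2 and CDX4, which switch on the middle of the clusters, had none, and neither had RARA at its canonical TSS. Of 13 homeobox genes related to HOX that lie outside the 4 clusters proper, 2 had one, GBX2 at 5.66 ± 0.650 and MNX1 at 5.79 ± 2.06, and the 3 CDX genes are counted in this list too. Genes of respiratory identity had 7 of 12, with NKX2-1, the factor that specifies lung and thyroid, at 7.43 ± 0.707, SOX9 at 7.59 ± 1.17 and IRX2 at 7.41 ± 0.951. SOX2, FOXA2, FOXF1, TBX4 and TBX5 had none. Other families of developmental transcription factors stood between HOX and the whole gene set, with 19 of 45 FOX, 6 of 19 SOX, 2 of 9 PAX and 3 of 13 TBX genes, or 34.9% of the 86. Their median CpG counts were 92, 80, 62 and 71, on either side of that of HOX. All these lists were short, and whether HOX differs from any of them was not tested.

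**Figure D5:**
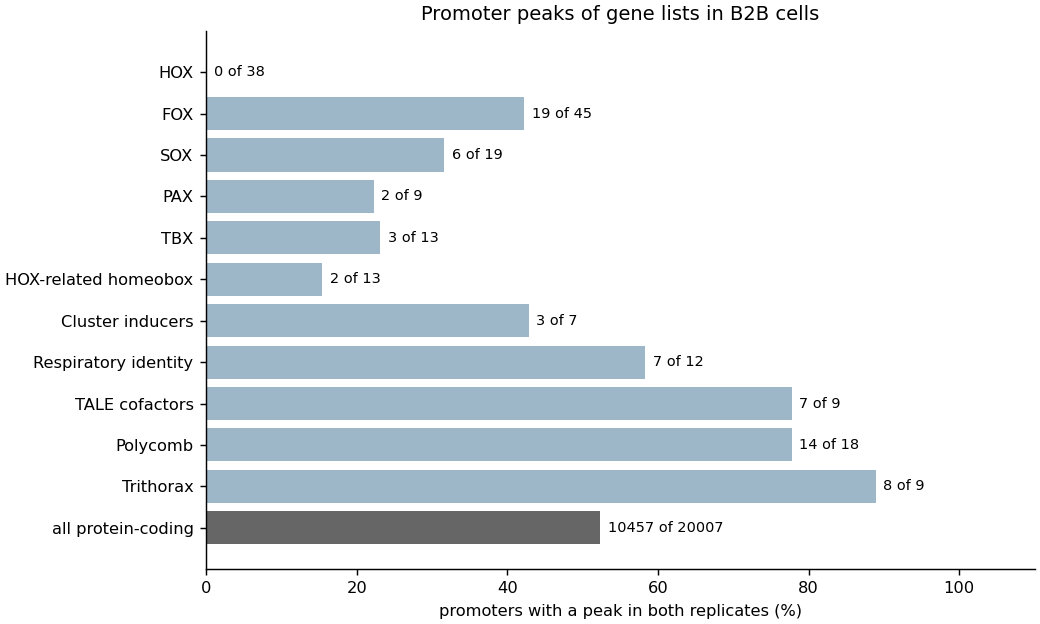
Percent of the promoters of each gene list with a peak within 1 kb of the canonical TSS in both replicates, with the counts beside the bars. HOX (first row) has 0 of 38, the other developmental families and regulators (blue) have between 15.4% and 88.9%, and all protein-coding genes (dark grey) have 52.3%.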

How the data were processed

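ATAC-Seq was performed on 2 replicates of B2B cells. Per the labels and the methods of the study, the authors mapped reads to hg38 with Bowtie2 2.4.4, removed duplicates with their own code and called peaks on each replicate with MACS2 2.2.7.1, keeping all remaining reads. SAMtools 1.13 is also named. The Tn5 shift, the q limit and the handling of mitochondrial reads are not given in the sources used here. Fold enrichment, as deposited by the authors, is a linear ratio over the local background, and they also give a −log10 p, a −log10 q, a summit position and a score, and the last was left out.

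The 28735 of 28874 and 36162 of 36319 peaks on chromosomes 1 to 22, X or Y were set against GENCODE 44, with 1 gene kept per symbol. A promoter was 1 kb to either side of the canonical TSS, overlaps were at least 1 bp, and CpGs were counted within 500 bp of the TSS. The fragment number of a summit follows from its fold enrichment and −log10 p by the MACS2 definitions and was solved within 0.01 for 99.7% and 99.8% of peaks. No peak in the spans was among the others. Overlaps, fragments and motif search were tested on simulated data. Intervals for fragments are 95% exact Poisson intervals and those for shares are Wilson intervals. Both cover counting error only. Fragments without molecular identifiers need not be independent molecules, and neighbouring promoters of a cluster need not be independent of each other. Means are over 2 replicates, and no test was run because there was 1 condition.

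The genes named were the HOX genes, other genes in or next to the spans, the region with the highest fold enrichment in each cluster, regions with a CTCF or DR5 match, and lists of regulators, cell type markers and developmental families. One HOX gene, 1 cofactor gene and the peaks and sequences at 2 places in the clusters are not reported here, for reasons unrelated to their values, so that counts of HOX genes are over 38 of 39, while counts over whole spans and lists include them. The members and lists were chosen with earlier results of these data known. Alternatives tried were a minimum −log10 q of 5, the strongest peaks in equal number, each replicate alone, windows of 500 bp and 3 kb, any annotated TSS, the summit in the window, each peak for its nearest TSS only, no flank or 50 kb, an overlap of 50% of each peak, and motif windows of 50 bp or the whole peak. Python 3.11.15 was used with matplotlib 3.10.9, scipy 1.17.1, numpy 2.4.6 and pandas 2.3.3.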

Additional observations from a re-analysis of the deposited data

How the results depend on the processing

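Of 57 alternative values for 10 results, 50 stayed within the limits set and 7 moved beyond them. The limits were 1.5 times for a count and 1 SD between the replicates for a length or a share. The count of HOX promoters with a peak in both replicates was 0 of 38 at every alternative except the 3 kb window, where it was 1 (HOXD12). Without replicate 1, the regions of the HOX spans numbered 5 in place of 3 (range 3 to 5). The covered share of 0.226% became 0.295% with no flanks. With equal numbers of the strongest peaks, the longest stretch in HOXB was 163.08 kb in place of 112 kb, since the 2 weak HOXB peaks of replicate 2 dropped out. Leaving out each replicate in turn, it ranged from 112 to 163.09 kb, in HOXA from 123.45 to 123.48 kb and in HOXD from 113.04 to 113.08 kb, and in HOXC it was 157 kb throughout. All protein-coding promoters with a peak numbered 9994 to 11605. No paired analysis was possible because there is 1 condition and no test. The lists show no peak under 16 and 13 fragments, and weaker accessibility at HOX genes would not appear in them.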

Other observations

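The flanks of the clusters, from 20 to 500 kb outward, differed in how many peaks they held, as a description chosen after the values were seen. The flank of HOXA on the SKAP2 side had 2 peaks in replicate 1 and 1 in replicate 2, the fewest of the 8 flanks, and the flank on the HOXA13 side had 5 and 6, whereas the flanks of HOXC had 10 and 11 on the HOXC13 side and 10 and 15 on the HOXC4 side. The HOXB flanks had 5 and 7 peaks on the HOXB1 side and 8 and 11 on the HOXB13 side, and those of HOXD had 5 and 6 on the HOXD13 side and 7 and 9 on the HOXD1 side. Over both sides together, the flanks of the empty HOXC cluster held the most peaks of the 4 clusters in each replicate.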
